A study of Mus musculus with 12 samples.

Results

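The aminoacyl-tRNA synthetases are the enzymes that load each tRNA with its amino acid. They were followed here in 2 muscles of mice lacking H6pd, the hexose-6-phosphate dehydrogenase of the endoplasmic reticulum (ER) lumen. Members were taken by symbol: a 1-letter amino acid code followed by ars, with or without a final 1, 2 or l, together with Eprs, Eprs1, Farsa and Farsb. Each gene was read by its brightest probe set that carried a single symbol. This gave 35 genes of the 13009 tested, of which 19 were counted as cytosolic and 16, whose symbols end in 2, as mitochondrial. The rule used names and overall brightness and no difference between groups, although it was set with earlier results of these data known. All 35 passed the filter on low signal, but Vars (mean log2 signal 2.57 over the 12 arrays), Wars2 (3.07), Pars2 (3.88), Ears2 (3.89) and Mars2 (4.06) lay in or near the floor of the table, where the size of a difference is compressed.

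Soleus, a slow postural muscle, and tibialis anterior (TA), a fast one, came from wild-type (WT) mice and from mice with a knockout (KO) of H6pd. All were 4 weeks old, after weaning, and their muscle looked free of overt myopathy under the microscope. Each of the 4 groups had 3 arrays described as biological replicates, 12 in all; strain and sex were not part of the labels used here. The knockout is given as a genotype of the mouse, and neither the deleted part of the gene nor any restriction to a cell type is named. The arrays read RNA of whole muscle, so fewer cells of a type and less RNA per cell cannot be told apart. With 3 arrays per group the number of arrays limits the precision of each value.

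An aminoacyl-tRNA synthetase recognises 1 amino acid and its tRNAs and joins them at the cost of ATP, and the charged tRNA then goes to the ribosome. The nuclear genome encodes separate sets of these enzymes for the cytosol and for mitochondria, although Gars and Kars each supply both compartments from 1 gene. Several of the cytosolic enzymes sit together in a multisynthetase complex. When tRNAs are left uncharged, or when proteins misfold in the ER, kinases phosphorylate the initiation factor eIF2, and translation of the transcription factor ATF4 rises. ATF4 is known to bind at many genes of amino acid uptake, synthesis and tRNA charging.

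RefSeq promoter windows were searched for the letters TGATGNAA on both strands, a pattern of the C/EBP-ATF response element that ATF4 binds. Each window ran from 250 bases before to 50 bases after a start site. The search was made with the expression differences already known. A window was used for 26 of the 35 members. The pattern was present in 5 of 12 cytosolic members (41.7%), in 0 of 14 mitochondrial members and in 4.51% of all 27025 genes with a window (3.97% of the windows). The ER stress element, CCAAT and CCACG set 9 bases apart, was present in 0 of the 26 and in 0.137% of all genes with a window. The 5 cytosolic members with a match were Aars, Gars, Iars, Tars and Yars. Their sequences around the start site are shown because these 5 genes also had a higher mean in KO than in WT in both muscles. This held for 13 of all 19 cytosolic members. In soleus the differences of Gars (0.03, SE 0.31) and Aars (0.09, SE 0.29) were well within their error. Each is printed 5′ to 3′ on the strand of its gene, from 120 bases before the start site to 20 bases of the transcript, with the match in capitals (TTGCATCA, TTTCATCA or TGATGCAA according to strand). The build is GRCm38.p6.
Tars: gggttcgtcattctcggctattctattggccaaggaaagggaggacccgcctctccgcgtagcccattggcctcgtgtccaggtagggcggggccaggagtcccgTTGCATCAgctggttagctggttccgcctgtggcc
Aars: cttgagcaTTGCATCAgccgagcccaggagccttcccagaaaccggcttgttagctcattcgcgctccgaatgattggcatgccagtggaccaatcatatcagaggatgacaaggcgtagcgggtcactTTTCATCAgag
Gars: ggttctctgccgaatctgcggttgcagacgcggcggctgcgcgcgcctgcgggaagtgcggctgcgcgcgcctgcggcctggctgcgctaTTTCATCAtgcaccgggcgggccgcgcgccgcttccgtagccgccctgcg
Iars: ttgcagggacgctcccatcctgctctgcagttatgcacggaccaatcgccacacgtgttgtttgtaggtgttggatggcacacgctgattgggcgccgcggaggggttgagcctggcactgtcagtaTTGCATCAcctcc
Yars: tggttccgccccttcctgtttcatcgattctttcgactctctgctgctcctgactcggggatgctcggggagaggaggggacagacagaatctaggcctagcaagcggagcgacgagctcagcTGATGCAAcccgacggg
Tars lies on the minus strand at chr15:11399639-11399778, and the others on the plus strand, Aars at chr8:111033722-111033861, Gars at chr6:55037881-55038020, Iars at chr13:49682010-49682149 and Yars at chr4:129189783-129189922. With the start site counted as position 0, the match lay at -15 to -8 in Tars and at -30 to -23 in Gars, and just inside the transcript in Iars (7 to 14) and Yars (3 to 10). Aars held 2 matches, at -112 to -105 and at 9 to 16. A match describes these letters only, and binding was not measured.

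The genotype labels were not checked by the targeted transcript. H6pd signal was log2 4.19, 4.41 and 6.10 on the KO soleus arrays against 5.57, 6.12 and 7.11 in WT soleus, and 6.89, 6.49 and 7.49 in KO TA against 6.37, 6.26 and 7.92 in WT TA. Neither difference passed the test (soleus -1.36, SE 0.62, adjusted p = 0.577; TA 0.11, SE 0.62, adjusted p = 0.966), and the labels do not place the probe set in or outside the deleted part. The arrays numbered 3 stood apart from the others of their group in all 4 groups, so results are also given without them. All 13 muscle fibre markers had a mean above log2 5 over the 12 arrays. Their summed log2 signal was 173.1 to 174.4 in KO TA against 159.5 to 170.8 in WT TA, without overlap. In TA 7 of the 13 had a higher mean in KO and 5 a lower one, with differences from -0.23 to 1.89 and a median of 0.04. In soleus the sums overlapped, at 194.0 to 199.6 in KO and 196.0 to 200.2 in WT. Other cell types were present too: 8 of 8 fibroblast markers had a higher mean in KO TA than in WT TA (summed log2 signal 91.8 to 98.4 against 91.6 to 95.01), and 7 of 7 endothelial markers a lower mean in KO soleus than in WT soleus (56.5 to 58.7 against 59.3 to 60.3). None of these 15 markers passed the test. Of the other marker lists, 4 genes passed a KO test. Myh2, the myosin heavy chain of fast oxidative fibres, rose in TA from 12.66, 12.34 and 13.56 to 14.62, 14.59 and 14.29 (1.64, adjusted p = 0.0110), while Ighm, an immunoglobulin chain of B cells, fell there from 10.57, 10.65 and 11.03 to 7.97, 7.47 and 6.28 (-3.51, adjusted p = 0.00875). Averaged over both muscles, Myh3, the embryonic myosin of regenerating fibres, rose by 1.96 (adjusted p = 0.0247), and Mb, myoglobin, fell by 0.23 (adjusted p = 0.0418). The part of all these markers in the synthetase values was not tested.

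In TA, most cytosolic synthetase transcripts had a higher mean in KO than in WT mice, by a modest amount, whereas the mitochondrial ones scattered around no difference. Of the 19 cytosolic genes, 16 were higher, with a median log2 difference of 0.28. Among the 16 mitochondrial genes 11 were higher, with a median of 0.04. The median over all genes tested was -0.00, with 48.6% of them higher. One member, Tars, passed the test (limma, adjusted p under 0.05 over all genes), against 2.83% of all genes, 1.42% of them upwards. At an unadjusted p under 0.05, 7 members were found, against 17.1% of all genes. The KO and WT values did not overlap for 9 members that were higher in KO (10.7% of all genes) and 2 that were lower (12.5% of all genes). Together these are 31.4% of the members, against 23.2% of all genes and 27.2% of those with a mean above log2 5.

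**Figure D1:**
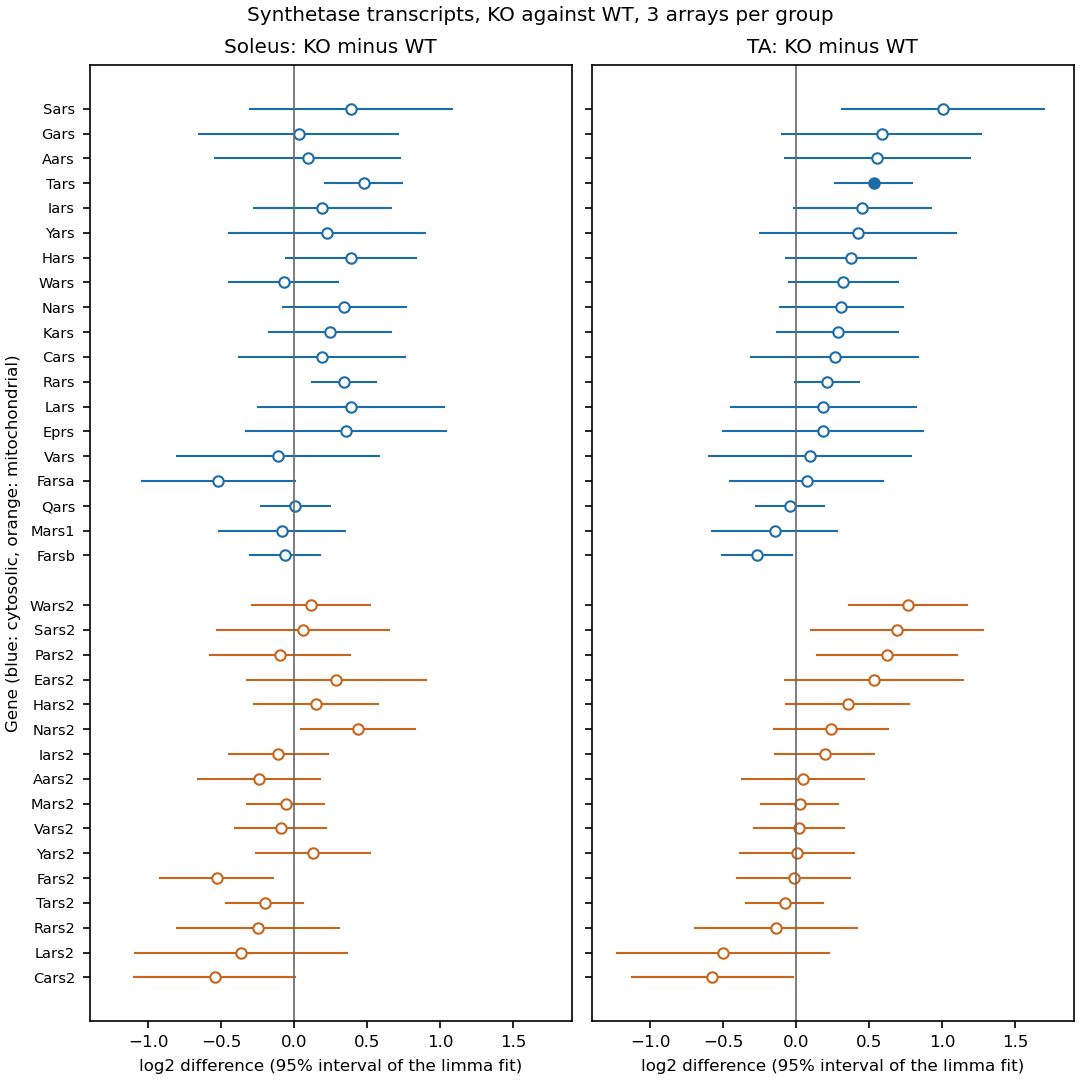
KO minus WT difference (log2) of each of the 35 synthetases in soleus (left) and TA (right), with the 95% interval of the limma fit over 3 arrays per group. Cytosolic genes are blue and mitochondrial genes orange, each ordered by the TA difference, and a filled point marks Tars in TA, the one member past the test there. Most blue points in TA lie to the right of 0, while the orange points spread from -0.57 for Cars2 to 0.77 for Wars2.

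Tars, the cytosolic threonyl-tRNA synthetase, was the member that rose. In TA its signal was log2 9.58, 9.96 and 9.88 on the KO arrays and 9.25, 9.40 and 9.18 on the WT arrays, so that every KO array lay above every WT array. It rose 1.44-fold (log2 difference 0.53, SE 0.12, 95% interval 0.27 to 0.79, limma adjusted p = 0.0459). In soleus the KO arrays read 9.44, 9.43 and 9.66 and the WT arrays 9.04, 9.07 and 9.00, again without overlap. The soleus difference was of similar size (0.48, SE 0.12) but did not pass the test (adjusted p = 0.244). Averaged over both muscles Tars alone passed, with a rise of 0.50 (SE 0.08, adjusted p = 0.0128), where 4.88% of all genes passed and 2.41% rose. For Tars the difference between the muscles was 0.05 (95% interval -0.32 to 0.43). The TA call was close to the threshold: it was lost in 10 of the 12 fits that left out 1 array. It held without KO soleus replicate 3 (0.0422), without KO TA replicate 1 (0.0202) and with the replicate number as a block (0.0288). It did not hold without KO TA replicate 3 (0.152), KO TA replicate 2 (0.138), WT TA replicate 1 (0.118), WT TA replicate 3 (0.113), WT TA replicate 2 (0.0671) or any of the other soleus arrays (0.0613 to 0.0756). Without the arrays numbered 3 the difference was 0.45 in TA (adjusted p = 0.229) and 0.41 averaged (adjusted p = 0.134). Leaving out any single array kept the averaged call (adjusted p = 0.00741 to 0.0384).

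Sars, the cytosolic seryl-tRNA synthetase, showed the largest TA difference among the 35. The KO TA arrays read 10.89, 11.37 and 11.69 and the WT TA arrays 10.07, 10.28 and 10.59. All KO arrays thus lay above all WT arrays, but the spread within each group was wide. The difference of 1.0 (SE 0.31, 95% interval 0.31 to 1.69) missed the threshold (adjusted p = 0.124), and a second Sars probe set differed by 1.06. With the replicate number as a block, which removes what arrays of equal number share, Sars passed (SE 0.13, adjusted p = 0.00954). Gars, the glycyl-tRNA synthetase, passed in that fit as well (0.58, SE 0.11, adjusted p = 0.0223, against 0.377 without the block), as did Tars and the dim Wars2. These 4 members compare with 7.01% of all genes called in the blocked fit. Gars read 9.91, 10.13 and 10.67 in KO TA and 9.50, 9.41 and 10.05 in WT TA, with the array numbered 3 the highest of either group.

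Aars, the alanyl-tRNA synthetase, read 9.93, 10.23 and 10.41 in KO TA and 9.55, 9.60 and 9.75 in WT TA, without overlap (0.56, SE 0.28, adjusted p = 0.365). Yars, for tyrosine, also did not overlap, at 7.83, 7.82 and 8.13 against 7.34, 7.46 and 7.72 (0.42, adjusted p = 0.532). The same held for Rars, for arginine, at 9.77, 9.78 and 9.81 against 9.55, 9.74 and 9.42 (0.21, adjusted p = 0.310). Iars (0.45), Hars (0.37), Wars (0.32), Nars (0.31), Kars (0.28) and Cars (0.26) followed with overlapping values, and none of them passed the test. Lower means in KO TA were seen for 3 cytosolic members only, Farsb (-0.27), Mars1 (-0.15) and Qars (-0.04). Farsb encodes 1 of the 2 subunits of the cytosolic phenylalanyl-tRNA synthetase, and its KO TA arrays (10.78, 10.74 and 10.97) all lay below the WT arrays (11.02, 11.02 and 11.25), with an adjusted p of 0.238. Its partner subunit Farsa differed by 0.07 in TA.

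**Figure D2:**
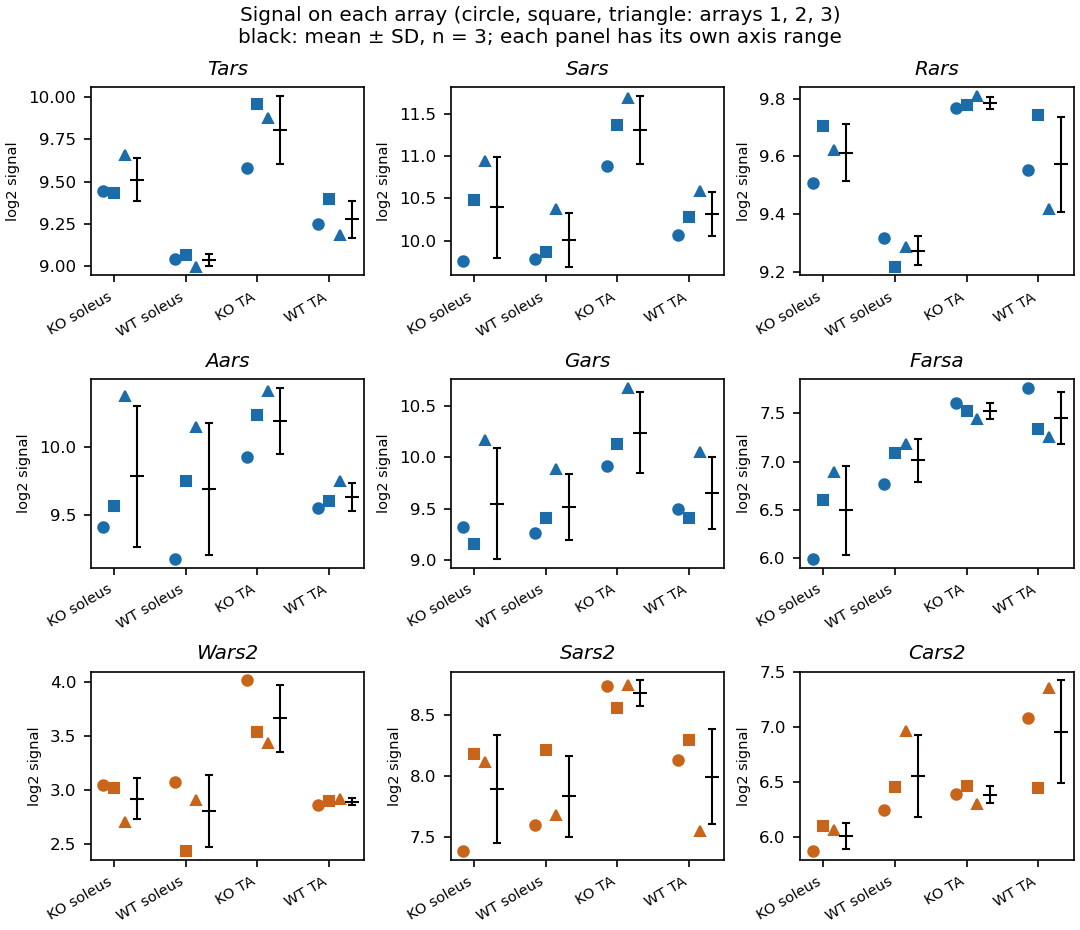
Log2 signal of 6 cytosolic (blue) and 3 mitochondrial (orange) synthetases on each of the 12 arrays, with circles, squares and triangles for arrays 1, 2 and 3 and the mean ± SD (n = 3) in black; each panel has its own axis range. Tars is higher in KO than in WT in both muscles without overlap, whereas Sars, Aars and Gars separate less in soleus, where the array numbered 3 of KO soleus is their highest.

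In soleus no synthetase passed the test, where 0.0307% of all genes did. At an unadjusted p under 0.05, 4 members were found, and this held for 8.76% of all genes. The cytosolic class still leaned to higher means in KO, with 14 of 19 higher and a median of 0.19, and the mitochondrial class to lower ones, with 6 of 16 higher and a median of -0.10. Over all genes tested the median was 0.00 and 51.1% were higher. Values did not overlap for 4 members, Tars, Rars and Nars2 higher (5.88% of all genes) and Cars2 lower in KO (6.08%). They make up 11.4% of the members, against 12% of all genes. The cytosolic soleus median rested on 1 library: without KO soleus replicate 3 it was -0.08, with 8 of 19 higher, and without the arrays numbered 3 of all groups it was 0.09, with 12 higher. Without WT soleus replicate 1 it was 0.04. The mitochondrial soleus median was -0.03 without WT soleus replicate 3 and also without KO soleus replicate 1, -0.15 without KO soleus replicate 3 and -0.05 with a pseudocount of 32. In TA the cytosolic median kept its sign without each array in turn (0.20 to 0.38) and without the arrays numbered 3 (0.23, with 16 of 19 higher).

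Rars had the smallest p after Tars among the members in soleus. Its KO soleus arrays read 9.51, 9.71 and 9.62 and its WT soleus arrays 9.32, 9.22 and 9.29. The difference of 0.34 (SE 0.10, 95% interval 0.12 to 0.56) did not pass (adjusted p = 0.304), and averaged over both muscles Rars differed by 0.28 (SE 0.07, adjusted p = 0.0525). Tars and Rars were the only members whose KO arrays lay above the WT arrays in both muscles, and no member lay below in both. They make up 5.71% of the members. Of all genes 2.42% lay above in both and 5.02% in either direction. Among genes with a mean above log2 5 the share in either direction was 7.18%. Farsa went the other way in soleus, at 5.99, 6.60 and 6.90 in KO against 6.77, 7.10 and 7.19 in WT (-0.52, SE 0.23, adjusted p = 0.573).

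**Figure D3:**
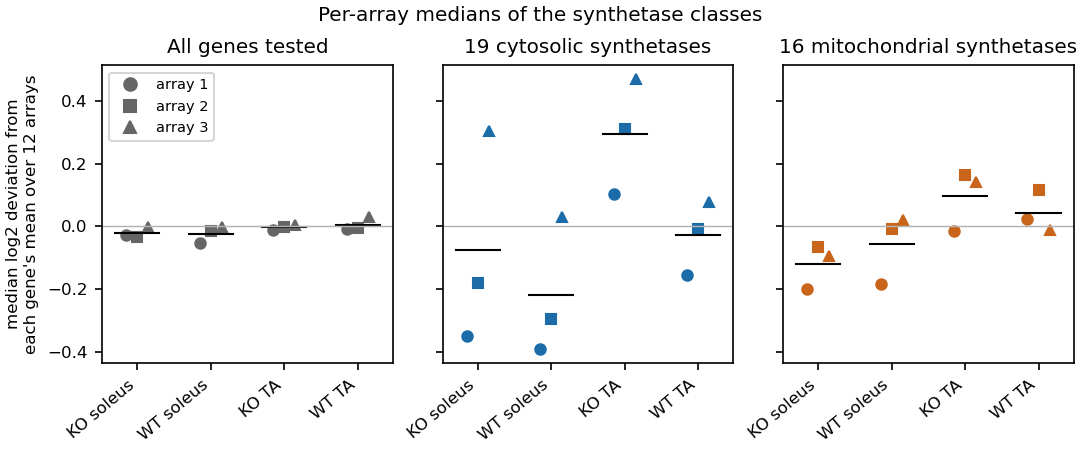
Median over each class of the log2 deviation of every gene from its own mean over the 12 arrays, shown for all genes tested (grey), the 19 cytosolic (blue) and the 16 mitochondrial synthetases (orange). Symbols mark arrays 1, 2 and 3 of each group and black lines the group means. The cytosolic medians of the KO TA arrays (0.10 to 0.47) lie above those of the WT TA arrays (-0.15 to 0.08), the KO soleus arrays range from -0.35 to 0.30, and the medians of all genes stay near 0.

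Read array by array, the median deviation of the cytosolic class was 0.10, 0.31 and 0.47 in KO TA and -0.15, -0.01 and 0.08 in WT TA. In soleus it was -0.35, -0.18 and 0.30 in KO and -0.39, -0.30 and 0.03 in WT. The array numbered 3 was the highest of its group in all 4 groups. The mitochondrial class did not follow this pattern, with -0.02, 0.16 and 0.14 in KO TA, 0.02, 0.12 and -0.01 in WT TA, -0.20, -0.07 and -0.10 in KO soleus and -0.18, -0.01 and 0.02 in WT soleus.

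The KO minus WT differences of the mitochondrial synthetases lay on both sides of 0, and 0 of the 16 passed the test in soleus, in TA or averaged. In TA 4 of the 16 had an unadjusted p under 0.05, against 17.1% of all genes. Wars2, the mitochondrial tryptophanyl-tRNA synthetase, read 4.01, 3.54 and 3.44 in KO TA against 2.87, 2.90 and 2.92 in WT TA. Because its WT values sat at the floor, the difference of 0.77 (SE 0.18, adjusted p = 0.0551) does not give a size, and it passed with the replicate block (adjusted p = 0.0288). A second Wars2 probe set, as dim as the first, differed by 0.25. Sars2, for serine, read 8.74, 8.56 and 8.75 against 8.13, 8.30 and 7.55, without overlap (0.69, SE 0.26, adjusted p = 0.209). Pars2, for proline, was dim at 4.15, 3.83 and 4.38 against 3.63, 3.58 and 3.26 (0.62, adjusted p = 0.162). The counterpart on the low side was Cars2, the mitochondrial cysteinyl-tRNA synthetase, at 6.39, 6.46 and 6.30 in KO TA against 7.08, 6.44 and 7.35 in WT TA (-0.57, SE 0.25, adjusted p = 0.269). In soleus Cars2 read 5.87, 6.10 and 6.06 against 6.24, 6.45 and 6.97, without overlap (-0.54, adjusted p = 0.577). Averaged over both muscles its difference was -0.56 (SE 0.17, adjusted p = 0.110). Lars2, for leucine, lay lower in KO TA, at 7.36, 7.52 and 7.73 against 7.75, 7.73 and 8.63, with the highest KO value just below the lowest WT value (-0.50, SE 0.33, adjusted p = 0.489). Among the mitochondrial members the soleus differences of smallest p were those of Fars2, for phenylalanine (-0.53, SE 0.17, adjusted p = 0.363), and Nars2, for asparagine (0.44, SE 0.17, adjusted p = 0.501). Fars2 is unsure, since its second probe set differed by -0.12 in soleus. Nars2 read 6.46, 6.42 and 6.40 in KO soleus and 5.75, 6.09 and 6.12 in WT soleus.

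Cytosolic and mitochondrial genes were paired by amino acid, with Eprs counted for glutamate only. This gave 15 amino acids and 16 pairs, because Farsa and Farsb both pair with Fars2. Eprs also charges proline, and its pair with Pars2 is outside this count. There Eprs differed by 0.36 and 0.18 and the dim Pars2 by -0.10 and 0.62 in soleus and TA. The cytosolic gene had the higher KO minus WT difference in 12 of 16 pairs in soleus and in 12 of 16 in TA. Threonine showed the contrast in both muscles: Tars differed by 0.48 and 0.53 and Tars2 by -0.20 and -0.08 in soleus and TA. Cysteine did as well, with 0.19 and 0.26 for Cars and -0.54 and -0.57 for Cars2. Leucine gave 0.39 and 0.19 for Lars against -0.36 and -0.50 for Lars2. A second Lars2 probe set, dim at a mean of 3.81, differed by -0.07 in soleus and 0.39 in TA. Serine and histidine did not split in this way in TA, where Sars2 (0.69) and Hars2 (0.35) lay high beside Sars (1.0) and Hars (0.37), although a second Hars2 probe set differed by -0.01. The mitochondrial gene had the higher difference in 4 of the 16 pairs in TA. These were Wars2 (0.77) above Wars (0.32), Ears2 (0.53) above Eprs (0.18), Fars2 (-0.02) above Farsb (-0.27) and Mars2 (0.02) above Mars1 (-0.15). Of these mitochondrial genes Wars2, Ears2 and Mars2 were dim and Fars2 was not. No pair was tested as such.

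**Figure D4:**
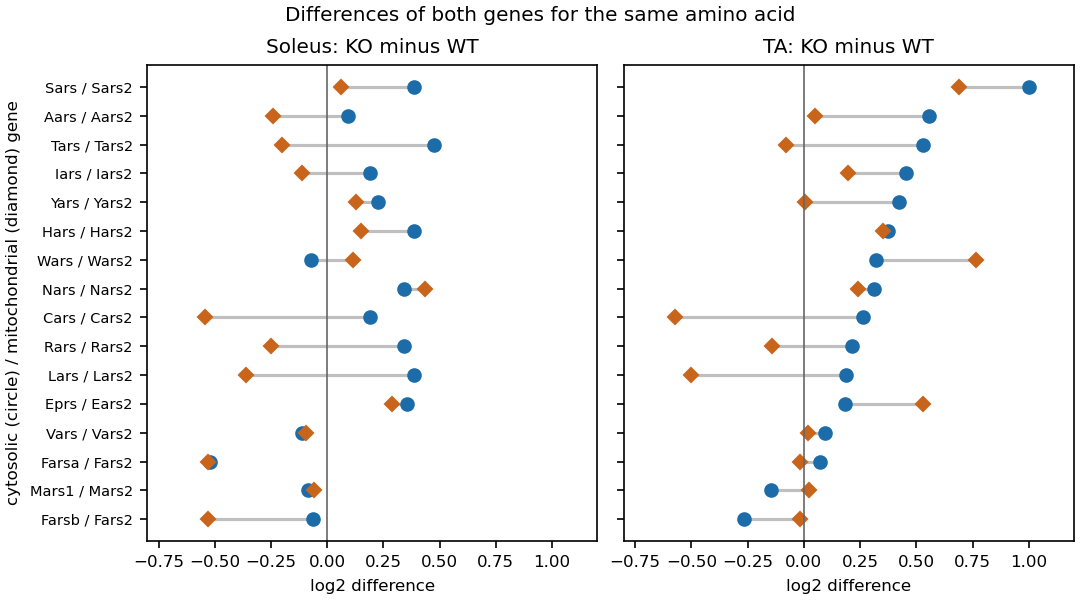
KO minus WT difference (log2) of the cytosolic (blue circle) and the mitochondrial (orange diamond) gene for the same amino acid in soleus (left) and TA (right), ordered by the cytosolic difference in TA. The circle lies to the right of the diamond in 12 of the 16 pairs in each muscle. Eprs is paired with Ears2 only.

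The cytosolic class was divided further by lists of known function. The 12 members commonly listed among ATF4 targets (Aars, Cars, Eprs, Gars, Iars, Lars, Mars1, Nars, Sars, Tars, Wars and Yars) had a median difference of 0.37 in TA, with 11 of 12 higher, and 0.21 in soleus, with 10 higher. The other 7 (Farsa, Farsb, Hars, Kars, Qars, Rars and Vars) had medians of 0.10 in TA, with 5 of 7 higher, and 0.01 in soleus, with 4 higher. Array by array, the median deviation of the first list was -0.41, -0.21 and 0.41 in KO soleus and -0.48, -0.34 and 0.07 in WT soleus. Neither list was refitted without KO soleus replicate 3, where the soleus median of the whole cytosolic class was -0.08. The 5 genes with the promoter pattern shown above all belong to the first list. They lay between 0.42 and 0.58 in TA (median 0.53) and between 0.03 and 0.48 in soleus (median 0.19). The 7 cytosolic members whose window held no match (Eprs, Farsa, Farsb, Kars, Mars1, Qars and Sars) had a TA median of 0.07 with 4 higher. Sars, the member with the largest TA difference, was among these. The 7 enzymes of the multisynthetase complex (Eprs, Iars, Kars, Lars, Mars1, Qars and Rars) had a median of 0.19 in TA and 0.24 in soleus, and the 12 outside it 0.35 and 0.14. By fold of the catalytic domain, the 10 class I enzymes had a median of 0.20 in TA and the 9 class II enzymes 0.37. These lists were chosen with results in view and no difference between them was tested.

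**Figure D5:**
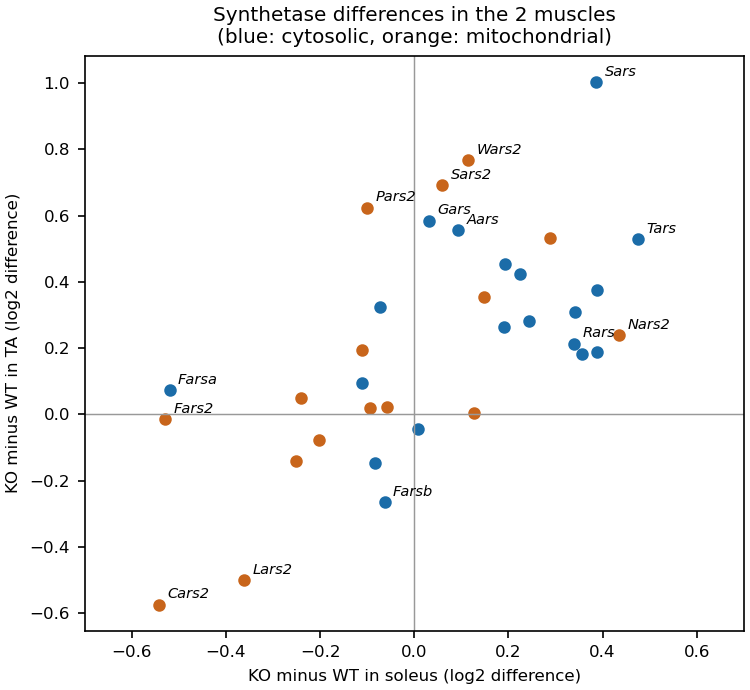
KO minus WT difference (log2) of the 35 synthetases in soleus (horizontal axis) and TA (vertical axis), cytosolic in blue and mitochondrial in orange, with 14 genes named. Of the 19 cytosolic genes 13 lie in the upper right part, higher in KO in both muscles, and Cars2 and Lars2 lie at the lower left.

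The differences of soleus and TA, which share no array, had the same sign for 26 of 35 members (74.3%, against 60.5% of all genes). Both were higher for 13 of 19 cytosolic members (68.4%), 6 of 16 mitochondrial members (37.5%) and 30.1% of all genes. Across the 35 genes the differences correlated with Pearson r = 0.612 (0.507 across all 13009 genes). Genes are not independent replicates, and arrays of equal number deviated alike across the groups, so these values are a description. The difference between the muscles in the KO effect passed the test for 0 members and for 0.0384% of all genes. At an unadjusted p under 0.05, 2 members were found, against 5.71% of all genes. The 5 of smallest p were Wars2 (0.65), Pars2 (0.72), Fars2 (0.51), Farsa (0.59) and Sars2 (0.63), all with the KO difference more positive in TA and an adjusted p of at least 0.816. For Sars the muscles differed by 0.62 with a 95% interval of -0.36 to 1.59.

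In KO mice most cytosolic synthetases had a lower mean in soleus than in TA, whereas in WT mice how many did depended on the scaling of the arrays. These comparisons reuse the arrays of the KO comparisons. In WT mice 17 of 19 cytosolic members had a lower mean in soleus (median -0.23) and 9 of 16 mitochondrial members did (median -0.07), with a median of -0.02 over all genes and 44.9% of them higher in soleus. For the cytosolic class 14 were lower with the table as deposited (median -0.15) and 11 with each array centred on its median (-0.07). The mitochondrial median was 0.03 and 0.11 under these scalings, so its sign is not settled. None of the 35 passed the test in WT, against 10.8% of all genes. At an unadjusted p under 0.05, 6 members were found, against 27.1% of all genes. Values did not overlap for 8 members lower (21.6% of all genes) and 1 higher in soleus (13.7%), 25.7% of the members against 35.3% of all genes. Qars, for glutamine, came closest, at 10.06, 10.25 and 10.24 in WT soleus against 10.59, 10.54 and 10.42 in WT TA (-0.33, SE 0.10, adjusted p = 0.0718). Rars (-0.30, adjusted p = 0.0827) and Nars (-0.51, adjusted p = 0.118) lay lower in soleus, and Nars2 higher (0.44, adjusted p = 0.142). With the replicate number as a block, Nars (adjusted p = 0.0209) and Mars1 (-0.47, adjusted p = 0.0123) were lower in soleus, where 18.2% of all genes passed. A second Nars probe set, almost as bright, differed by -0.02 in WT and -0.12 in KO, so the muscle difference of Nars was not seen on both. For Qars, 2 further bright probe sets differed by -0.13 and -0.30 in WT.

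In KO mice 17 of 19 cytosolic members lay lower in soleus (median -0.40), or 16 with the table as deposited or median centred (-0.36 and -0.34), and 14 of 16 mitochondrial members (median -0.21), where 42.9% of all genes were higher in soleus. Both members that passed, Farsa and Wars2, were lower in soleus, against 8.97% of all genes called and 4.62% called lower. Values did not overlap for 12 members lower (18.5% of all genes) and 1 higher (11.7%). This is 37.1% of the members, against 30.2% of all genes and 36.7% of those with a mean above log2 5. Farsa fell from 7.61, 7.53 and 7.44 in KO TA to 5.99, 6.60 and 6.90 in KO soleus (-1.03, SE 0.23, adjusted p = 0.0247). Wars2 was lower by -0.74 (SE 0.18, adjusted p = 0.0331), its soleus values of 3.05, 3.02 and 2.70 lying in the floor, and its second probe set differed by -0.12. With a pseudocount of 32 the Wars2 difference was -0.18. Farsa lost the call without KO soleus replicate 1 (adjusted p = 0.0704), KO soleus replicate 2 (0.052), KO TA replicate 1 (0.0742), KO TA replicate 2 (0.0758) or KO TA replicate 3 (0.0554). Wars2 lost it without each of these but KO TA replicate 3, and also without KO soleus replicate 3 or WT TA replicate 1 (0.051 to 0.090). Nars2 lay higher in soleus, at 6.46, 6.42 and 6.40 against 5.50, 6.13 and 5.74 (0.63, SE 0.17, adjusted p = 0.0517). Aars2 (-0.58, adjusted p = 0.0885) and Sars2 (-0.79, adjusted p = 0.0982) lay lower. With the replicate block 8 members passed, against 16.9% of all genes: Sars (-0.92), Gars (-0.69), Iars (-0.49), Nars (-0.47) and Mars1 (-0.41) joined Farsa and Wars2 as lower in soleus, and Nars2 as higher.

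Around the enzymes, few genes of the tRNA charging pathway passed the test. None of the 3 scaffold proteins of the multisynthetase complex passed the KO tests. Aimp2, one of them, read 12.69, 11.97 and 11.79 in KO TA against 13.08, 13.23 and 12.64 in WT TA (-0.83, adjusted p = 0.0767). None of 11 genes for proofreading, deacylation or selenocysteine charging passed. Of 29 genes that cut, splice, modify or export tRNA, 2 rose in KO TA and none fell, where 1.42% of all genes rose, and the median was 0.21. Rtcb, the ligase that joins the cut pieces of spliced tRNA and Xbp1 mRNA, rose from 9.26, 9.38 and 9.27 to 9.72, 9.91 and 9.87 (0.53, SE 0.09, adjusted p = 0.0153). Pop7, a protein subunit of RNase P, rose from 5.34, 5.23 and 6.68 to 7.13, 7.46 and 7.81 (1.71, SE 0.36, adjusted p = 0.0375). Xpot, the exporter of tRNA, differed by 0.52 in TA (adjusted p = 0.215).

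Downstream of charging, 1 elongation gene rose and 2 fell in KO when both muscles were averaged. Of 7 cytosolic elongation genes 1 passed in the comparison averaged over both muscles, against 4.88% of all genes: Eef2, the factor that moves the ribosome along, rose by 0.82 (SE 0.19, adjusted p = 0.0408). Of 12 mitochondrial charging helpers and elongation genes 2 passed there, both lower in KO, as were 2.47% of all genes. Gfm1, the mitochondrial elongation factor G, fell by 0.38 (SE 0.08, adjusted p = 0.0290). Gfm2, which recycles mitochondrial ribosomes, fell by 0.46 (SE 0.11, adjusted p = 0.0380). In soleus Gfm2 read 8.05, 8.16 and 7.98 in KO against 8.67, 8.68 and 8.59 in WT. None of these 19 genes passed in soleus or TA alone.

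Of 25 genes of the integrated stress response and its amino acid synthesis targets, 21 had a higher mean in KO TA (median 0.48), against 48.6% of all genes, and 2 passed there, both risen, against 1.42% of all genes. Aldh18a1, which starts proline synthesis, read 8.24, 9.16 and 9.46 in KO TA and 6.94, 6.71 and 6.44 in WT TA (2.26, SE 0.34, adjusted p = 0.0110). Ddit3, which encodes the stress factor CHOP, read 9.50, 10.73 and 11.05 against 8.32, 8.18 and 7.98 (2.27, SE 0.42, adjusted p = 0.0234). Averaged over both muscles 5 rose and none fell, where 2.41% of all genes rose, among them Psat1 (1.43, adjusted p = 0.0295), Mthfd2 (2.65, adjusted p = 0.0311) and Atf4 itself (0.51, adjusted p = 0.0477). Atf4 transcript read 10.91, 11.50 and 11.31 in KO TA and 10.45, 10.56 and 10.49 in WT TA. Asns, the asparagine synthetase and a classical ATF4 target, read 6.73, 8.65 and 9.47 in KO TA and 6.13, 6.97 and 8.97 in KO soleus, against 5.62 to 6.75 on the 6 WT arrays. Asns passed the test in neither muscle alone. Its high KO arrays included KO soleus replicate 3, the array on which the cytosolic synthetase median was also highest in soleus. KO TA replicate 1 was the lowest of its group for Asns, Ddit3, Aldh18a1 and Atf4, and likewise for the cytosolic median. In WT the array numbered 3 had the highest cytosolic median in both muscles, but these genes did not share that order. Aldh18a1 was lowest on it in WT soleus (6.93) and WT TA (6.44). Asns was lowest on it in WT soleus (5.62) and Ddit3 in WT TA (7.98). Ddit3 was highest on it in WT soleus (8.99), and Atf4 was neither highest nor lowest on it in either muscle. Whether these genes and the synthetases share a cause was not tested. None of 15 amino acid transporters passed, and Slc7a1, the carrier of cationic amino acids, differed by 1.06 averaged over both muscles (adjusted p = 0.0577).

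A second probe set above log2 5 was available for 13 of the members, 17 probe sets in all. Its KO minus WT difference had the sign of the chosen probe set in 16 of 17 cases in TA and in 14 of 17 in soleus. The median gap between the 2 readings was 0.10 in TA and 0.13 in soleus, in log2 units. For 12 members the array carried 1 probe set, Tars, Gars, Kars, Lars, Rars and Yars among them, and no second reading was possible.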

How the data were processed

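Total RNA was extracted with Trizol and labelled as biotin cRNA, per the labels' protocols; MAS5 appears in the submitters' processing notes, its role unstated. The authors deposited a table of log2 signals (0.889 to 16.36) for 45101 probe sets, and no source used here names the summary method. Because 2% trimmed means differed 1.11-fold, arrays were brought to common quantiles. A filter at the 40th percentile (log2 2.758), passed on at least 3 of 12 arrays, left 27559 probe sets. The brightest probe set with 1 symbol represented each gene. Of all probe sets 34958 had 1 symbol, 932 several and 9211 none.

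Genes were fitted with limma 3.58.1 in R 4.3.3 on 4 group means with a variance trend, and Benjamini-Hochberg adjusted over 13009 genes at 0.05. An exact permutation test of 3 arrays against 3 cannot go below 0.1, so p-values come from limma. The fit was tested on simulated data. Nothing shows that replicates came from separate mice beyond the word biological, and p-values measure only the spread between these arrays.

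Members and lists were chosen with earlier results of these data known. The named members are the 5 of smallest p in each comparison, and other members are given by value. All 35 symbols matched RefSeq (GRCm38.p6), which also gave the promoters; windows on chromosome 18 were not used. Alternatives covered scaling, filter, pseudocount, variance model, weights, blocking, samples fitted, probe set rule and each array left out.

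Equal replicate numbers were taken as pairing where deviations from the group mean correlated above 0.1 for every number. For the replicate block this correlation was 0.345, 0.158 and 0.557 between KO and WT TA, 0.489, 0.432 and 0.590 between the KO muscles and 0.351, 0.141 and 0.594 between the WT muscles. KO and WT soleus fell short at number 2 (0.0911). At number 2 the highest correlation with another number was larger, at 0.203 between KO and WT TA. It was 0.218 between the WT muscles and 0.286 between KO and WT soleus. At number 1 of the WT muscles it was 0.347, close to the 0.351 of equal numbers. Between the KO muscles, and at number 3 in each of these comparisons, equal numbers correlated more. Calls with the block in TA or WT thus rest on a pairing not singled out at number 2. The labels give no source for such a pairing.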

Additional observations from a re-analysis of the deposited data

How the results depend on the processing

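The median differences of both classes kept their direction under all alternatives in TA. The cytosolic soleus median turned to -0.08 without KO soleus replicate 3, and the mitochondrial WT muscle median turned to 0.029 with the table as deposited and 0.11 with median centring, and lay at 0.00 without WT soleus replicate 2. The averaged mitochondrial median ranged from -0.07 to 0.07. The mitochondrial TA median was 0.16 with median centring and 0.13 without the arrays numbered 3 (0.028 to 0.13 without single arrays), the mitochondrial median of soleus against TA in KO was -0.12 with median centring, and that of the difference between the muscles was 0.26 with array weights. The cytosolic WT muscle median (-0.23) shrank to -0.07 with median centring, and the mitochondrial soleus median (-0.10) ranged from -0.17 to -0.03. No named member changed sign.

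Counts of members past the test moved more. In soleus, array weights gave 2 in place of 0. In TA the count of 1 became 0 with no filter, robust variances, only the groups compared or the arrays numbered 3 left out, 2 with the mean of all kept probe sets and 4 with the replicate block (0 to 1 without single arrays). Averaged over both muscles the count of 1 became 2 with the deposited table, median centring, a pseudocount of 16 or 32, no variance trend or the mean of all kept probe sets, 4 with array weights, 9 with the replicate block and 0 without the arrays numbered 3 (1 to 3 without single arrays). For soleus against TA in WT, 0 became 1 with the deposited table or median centring, 5 with array weights and 2 with the block (0 to 1 without single arrays). In KO, 2 became 1 with no filter or the mean of kept probe sets, 6 with array weights, 8 with the block and 0 with only the groups compared (0 to 4 without single arrays). The cause of these changes was not tested; leaving out arrays also leaves fewer to fit. In all 9 members were called averaged over both muscles with the block, against 10.1% of all genes, although the numbers do not meet the pairing rule in soleus. The block changed no call in soleus or in the difference between the muscles. Low signal over background limits Vars, Wars2, Pars2, Ears2 and Mars2.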
